A study of Mus musculus with 7 samples.

Results

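The genes of macrophages and monocytes, dendritic cells and neutrophils were examined in RNA-seq libraries of mouse mammary gland, as 35 genes chosen by name among the 37310 genes of the count table. They comprised 21 macrophage and monocyte genes, 8 dendritic cell genes and 6 neutrophil genes. The table holds 3 libraries labelled WT and 4 labelled *Tardbp* KO, all from glands of C57BL/6 mice at lactation day 1. Both genotypes carry the WAP-Cre transgene, a Cre recombinase under the whey acidic protein promoter, which acts in luminal epithelial cells from mid-pregnancy to lactation. WT mice have intact *Tardbp* alleles, and KO mice are *Tardbp* flox/flox, from which Cre removes exons 2 and 3 of the gene for TDP-43, an RNA-binding protein. Cre activity in myeloid cells was not measured here, and the RNA came from tissue rather than sorted cells. Ages of the mice were not given in the sources used here. Of the 35 genes, 32 passed the filter on low counts, among 17175 genes tested, and *Cxcr2*, *Ly6g* and *Mpo* did not.

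Macrophages of the mammary gland lie along ducts and alveoli, where they engulf dead cells and residual milk, and their survival depends on signals through the receptor of colony-stimulating factor 1. Dendritic cells sample antigen in the tissue and carry it to the draining lymph node, where they meet T cells. Neutrophils are short-lived cells of the bone marrow and blood that enter the gland in number during infection or involution. In bulk tissue, a lower level can come from fewer cells of a type or from less RNA per cell, and these cannot be told apart.

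Library totals lay between 36007737 and 42811337 counts. TMM factors, which correct for the share of RNA taken by the most abundant genes, were 0.781 to 0.909 in WT and 1.00 to 1.23 in KO. Every KO library thus had a higher factor than every WT library. Levels are given as TMM-normalised CPM, that is, counts scaled to a common library size, with the SD over 3 WT or 4 KO libraries. *Tardbp* itself was at 187 ± 32.6 CPM in WT and 188 ± 28.2 CPM in KO, counted over the whole gene, so these counts did not separate the labels and cannot be resolved to the deleted exons. In addition, 24.3% of its exon bases overlap *Masp2* on the opposite strand. KO replicates 1 and 3 stood apart by their lymphocyte genes. The summed level of 12 lymphocyte markers was 487 CPM in KO replicate 1, 653 CPM in KO replicate 3, 79.3 CPM in KO replicate 2 and 147 CPM in KO replicate 4, against 44.2 to 63.4 CPM in WT. The counts of genes with an unadjusted p under 0.05 in the lists of members, further myeloid genes and ligands are therefore also given without these libraries. Lane 4 of the sequencer held libraries of both genotypes, namely WT replicate 2 and KO replicates 3 and 4, and the remaining lanes held a single library each.

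All 3 cell types were first checked by level per length of exon. The macrophage genes were well detected, the dendritic genes lower and most neutrophil genes close to the detection limit. Per kilobase of exon, *Lyz2*, the gene of the lysozyme of macrophages, monocytes and neutrophils, was highest, with a mean of 164 CPM per kb over the 7 libraries. It was followed by *C1qa* (96.2 CPM per kb) and *C1qb* (71.8 CPM per kb), which encode chains of complement C1q made by tissue macrophages. The highest dendritic genes were *Itgax*, the integrin CD11c, at 4.48 CPM per kb and *Batf3*, a transcription factor of type 1 conventional dendritic cells, at 3.76 CPM per kb. *Csf3r*, the receptor of granulocyte colony-stimulating factor, led the neutrophil genes at 0.888 CPM per kb. *Ly6g*, which defines mouse neutrophils, had 1 count in KO replicate 3 and none in the 6 other libraries, where a count of 0 allows a level of up to 0.069 to 0.113 CPM. The neutrophil label thus lacks this defining marker here.

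**Figure D1:**
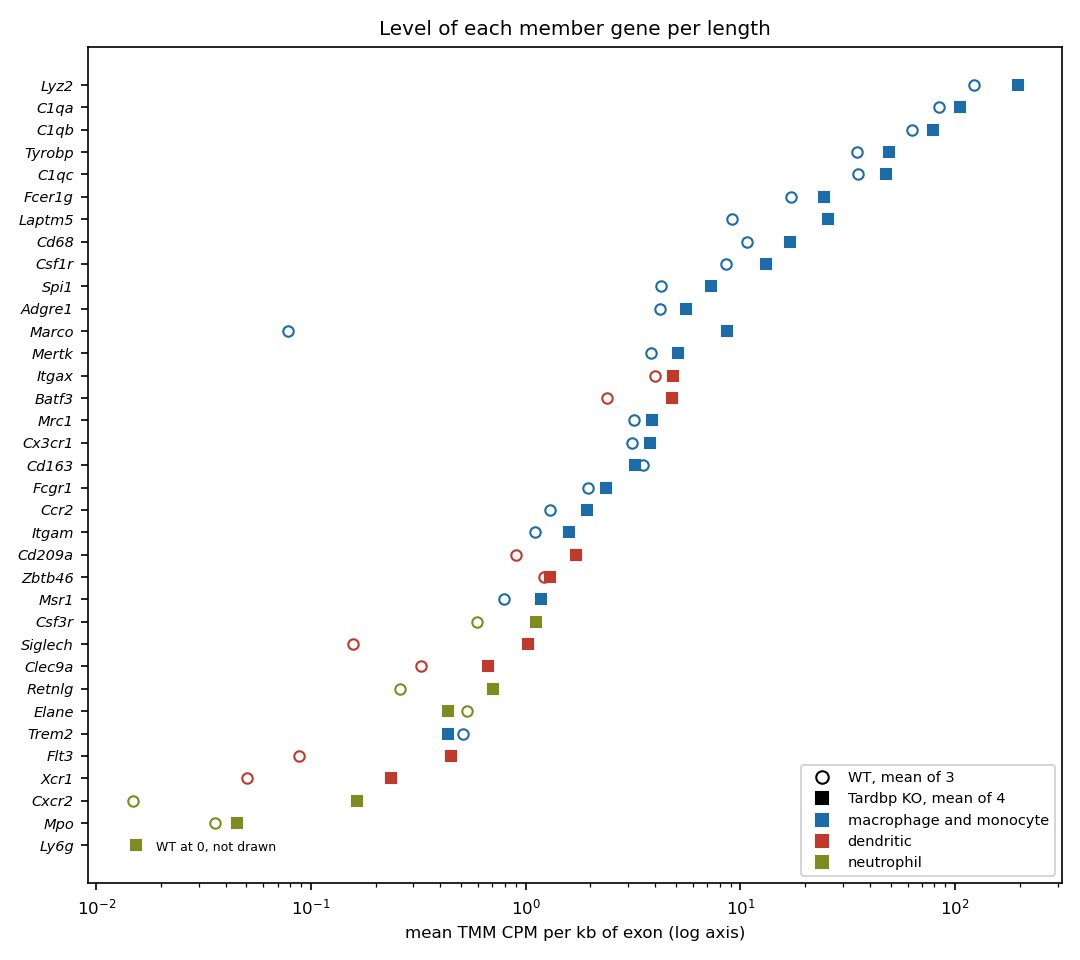
Mean TMM CPM per kilobase of exon (log axis) of the 35 genes, open circles for the 3 WT libraries and squares for the 4 *Tardbp* KO libraries, coloured by cell type. *Lyz2* is highest at 164 CPM per kb over all libraries, *Ly6g* is lowest and its WT mean of 0 is not drawn, and *Marco* has the widest gap between the genotypes.

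The question of the comparison was which genes differ between glands with and without *Tardbp* in the epithelium, and here whether myeloid genes do. A gene was called where edgeR's quasi-likelihood test gave a Benjamini-Hochberg adjusted p under 0.01 and the level moved by more than 1 on the log2 scale, and no member was called. Of all 17175 genes, 0% were called this way. Adjusted p-values of the members lay between 0.0899 and 0.93. At an unadjusted p under 0.05, 8 of 32 members were higher in KO, where 10.7% of all genes were, and 0 were lower, where 10.7% of all genes were. The 8 were *Marco*, *Laptm5*, *Spi1*, *Flt3*, *Xcr1*, *Clec9a*, *Batf3* and *Siglech*. In 5 of the 32, all KO libraries lay above all WT libraries, where 9.07% of all genes did, and in 0 of them below, where 9.62% did. With edgeR's exact test, 2 members were called, *Marco* (adjusted p = 0.00492) and *Laptm5* (adjusted p = 0.00607), where 1.04% of all genes were called higher. DESeq2 called 3, which were *Marco*, *Laptm5* and *Siglech*. Over all genes, the quasi-likelihood test gave 1836 higher and 1838 lower at an unadjusted p under 0.05, the exact test called 426 genes and DESeq2 568.

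The fold changes of 29 of the 32 members were positive, with a median log2 fold change of 0.55, against 0.05 over all genes, of which 54.3% were positive. The median was 0.49 for the 21 macrophage and monocyte genes, 1.02 for the 8 dendritic genes and 0.91 for the 3 neutrophil genes tested. These medians are descriptions without a test. Without KO replicates 1 and 3 they were 0.41, 0.63 and 0.64, and 3 members remained higher at an unadjusted p under 0.05, *Marco*, *Laptm5* and *Batf3*, where 5.46% of all genes were. The count depended on single libraries, since it was 18 without KO replicate 4, where 11.5% of all genes were higher, and 5 without WT replicate 2, where 13.7% were. In lane 4 alone, the medians were 0.26, 0.99 and −0.58.

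**Figure D2:**
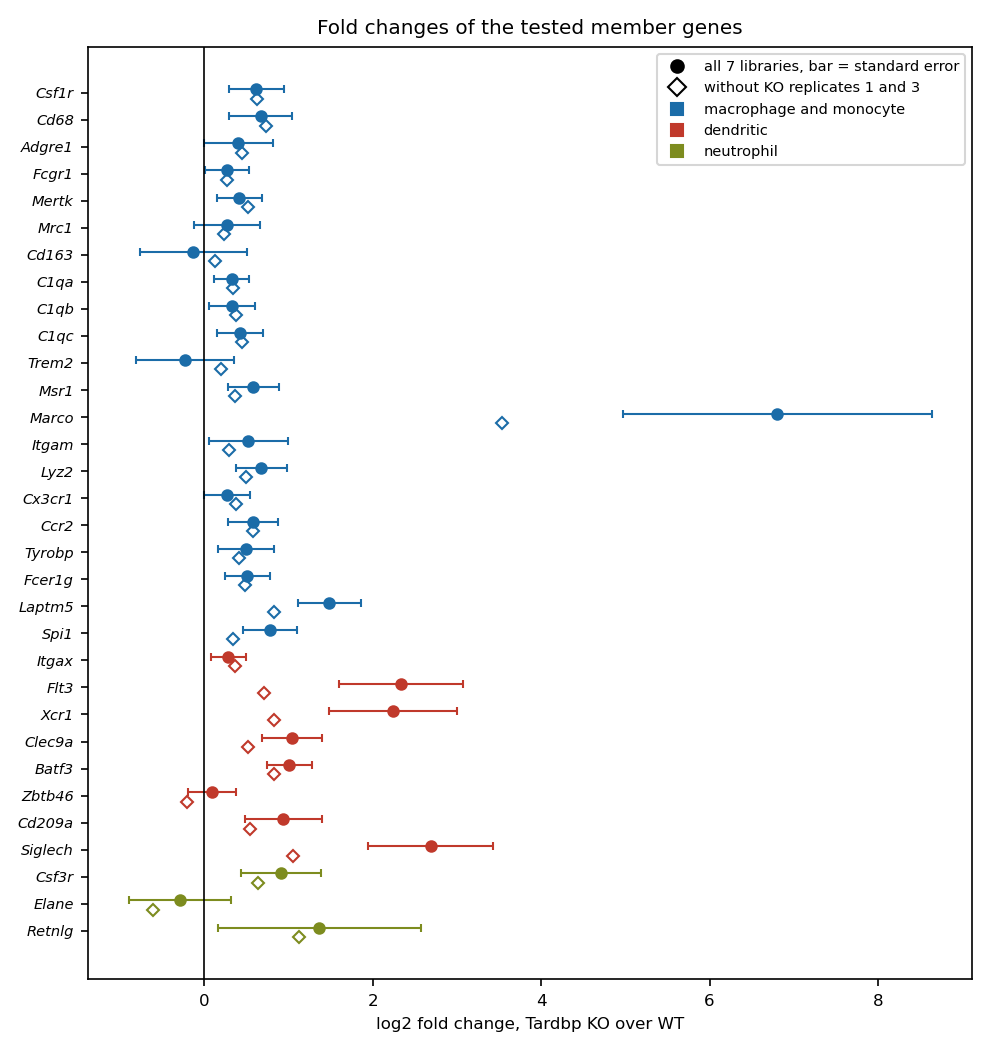
Log2 fold change of *Tardbp* KO over WT for the 32 genes tested, filled circles with standard errors from all 7 libraries and open diamonds without KO replicates 1 and 3. *Marco* moves from 6.81 to 3.53, *Flt3*, *Xcr1* and *Siglech* also lie closer to 0 without these libraries, and most macrophage genes hardly move.

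Among the macrophage receptors, *Csf1r*, the receptor of colony-stimulating factor 1, was at 45.0 ± 6.30 CPM in WT and 69.1 ± 30.0 CPM in KO. Its log2 fold change was 0.62 ± 0.33 (SE), with an adjusted p of 0.321. The KO libraries spanned 32.9 to 106 CPM, so that they lay on both sides of WT. Of its exon bases, 16.7% overlap *Hmgxb3* on the opposite strand, and the counts carry no strand. *Adgre1*, which encodes the macrophage surface marker F4/80, was at 13.8 ± 3.78 CPM in WT and 18.2 ± 9.44 CPM in KO. *Cd68*, a lysosomal glycoprotein, was at 13.5 ± 3.49 CPM and 21.4 ± 10.2 CPM. *Fcgr1*, the high-affinity IgG receptor, was at 5.12 ± 0.805 CPM and 6.18 ± 1.6 CPM. None of these passed the test. KO replicate 4 lay below all WT libraries for *Csf1r* and *Adgre1*, and within the WT range for *Cd68* and *Fcgr1*.

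The receptors for dead cells and debris gave small or unsteady differences. *Mertk*, which binds apoptotic cells, was at 16.6 ± 3.03 CPM in WT and 22.2 ± 6.94 CPM in KO. *Mrc1*, the mannose receptor, was at 19.1 ± 6.69 CPM and 23.0 ± 10.2 CPM. *Cd163*, the haemoglobin scavenger receptor, was at 15.9 ± 10.4 CPM and 14.5 ± 11.5 CPM, and its WT libraries alone ranged from 7.63 to 27.6 CPM. *Trem2*, a lipid-sensing receptor, was at 2.51 ± 1.27 CPM and 2.15 ± 1.62 CPM. *Cd163* and *Trem2* were the macrophage genes with a negative fold change, −0.13 ± 0.63 and −0.23 ± 0.58 on the log2 scale (SE), and both changed sign with other settings. *Msr1*, the class A scavenger receptor, was at 3.18 ± 0.329 CPM and 4.75 ± 1.39 CPM, with 5.34 to 5.52 CPM in KO replicates 1 to 3 and 2.67 CPM in KO replicate 4.

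*Marco*, a scavenger receptor for bacteria on macrophages of the marginal zone of spleen and of the lymph node medulla, had the largest fold change of the 32 genes. It was at 0.226, 0.0596 and 0.178 CPM in WT replicates 1 to 3. In KO it was at 20.6, 0.046, 44.6 and 3.55 CPM in replicates 1 to 4. KO replicate 2, with 2 counts, was as low as WT, whose libraries held 6, 2 and 6 counts, while the other KO libraries held 778, 2177 and 133. The log2 fold change was 6.81 ± 1.84 (SE), with an adjusted p of 0.097, and 3.53 without KO replicates 1 and 3. The order of the KO libraries was that of the lymphocyte markers, highest in KO replicate 3, then 1, then 4, then 2. With the lymphocyte markers as a covariate, the log2 fold change was −0.53. The summed level of these markers was 79.3 to 653 CPM in KO and 44.2 to 63.4 CPM in WT. A fit with this covariate therefore cannot fully tell genotype and lymphocyte RNA apart.

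The C1q genes gave small differences. *C1qa* was at 72.7, 85.4 and 104 CPM in WT and at 106, 142, 110 and 80.7 CPM in KO replicates 1 to 4. *C1qb* was at 59.4, 55.7 and 89.3 CPM in WT and at 84.5, 122, 80.7 and 54.8 CPM in KO. KO replicate 2 was highest for each gene, and KO replicate 4 lay within the WT range for *C1qa* and just below it for *C1qb*. The log2 fold changes were 0.33 ± 0.21 for *C1qa*, 0.33 ± 0.27 for *C1qb* and 0.43 ± 0.28 for *C1qc* (SE), with adjusted p-values of 0.412, 0.537 and 0.415.

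Genes shared by monocytes and macrophages followed the same course. *Lyz2* was at 169, 130 and 183 CPM in WT and at 271, 326, 303 and 128 CPM in KO replicates 1 to 4. Thus 3 KO libraries lay above WT and KO replicate 4 lay below it. The log2 fold change was 0.68 ± 0.31 (SE), with an adjusted p of 0.244, and reads of the near-identical *Lyz1* may be split with it. *Itgam*, the integrin CD11b, was at 7.02 ± 3.90 CPM in WT and 10.1 ± 4.25 CPM in KO. *Ccr2*, the chemokine receptor by which monocytes enter tissue, was at 8.28 ± 0.994 CPM and 12.4 ± 4.37 CPM. *Cx3cr1*, the fractalkine receptor, was at 11.7 ± 2.45 CPM and 14.1 ± 4.70 CPM.

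Of the signalling genes, the adaptors *Tyrobp* (DAP12) and *Fcer1g* (the Fc receptor gamma chain), which carry signals of many myeloid receptors, were at 19.7 ± 3.74 and 13.7 ± 3.86 CPM in WT. In KO they were at 27.7 ± 11.1 and 19.5 ± 5.31 CPM. *Laptm5*, a lysosomal membrane protein found in lymphocytes as well as myeloid cells, was at 29.4, 37.1 and 36.9 CPM in WT and at 118, 81.7, 145 and 41.0 CPM in KO replicates 1 to 4. All KO libraries lay above WT, KO replicate 4 only just. The log2 fold change was 1.49 ± 0.38 (SE), with an adjusted p of 0.0899 and a 2-sided exact permutation p of 0.0571. Without KO replicates 1 and 3 it was 0.83, and with the lymphocyte covariate 0.74.

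*Spi1* encodes PU.1, the transcription factor that B cells and all myeloid cells need for their development. It was at 8.95, 9.86 and 15.5 CPM in WT and at 24.4, 18.1, 25.3 and 10.8 CPM in KO replicates 1 to 4. KO replicate 4 lay within the WT range and the other KO libraries above it. The log2 fold change was 0.78 ± 0.32 (SE), with an adjusted p of 0.206. It was 0.34 without KO replicates 1 and 3 and 0.31 with the lymphocyte covariate. PU.1 binds a purine-rich stretch, the PU box, so the promoters of the members were searched for its letters, GAGGAA or TTCCTC for the reverse strand. The RefSeq table for GRCm38.p6 gives 250 bases before and 50 bases after a gene's start. In it, 29 members had a promoter and 16 held the letters in any promoter listed for them. Of all 32851 promoters in the table, 28.3% held them, which is a share of promoters and not of genes. A match is a description of sequence and not a bound site. To show them, 4 promoters are printed below with the PU box in capitals, for the member with the largest fold change, for a dendritic gene, for a C1q gene and for a member that holds the letters on both strands. Each was located once in NCBIM37, the build of the counts. That of *Marco* lies at chr1:122401662-122401801 on the minus strand, that of *Batf3* at chr1:192922093-192922292 on the plus strand, that of *C1qb* at chr4:136442116-136442315 on the minus strand and that of *Itgam* at chr7:135205954-135206153 on the plus strand.
Marco: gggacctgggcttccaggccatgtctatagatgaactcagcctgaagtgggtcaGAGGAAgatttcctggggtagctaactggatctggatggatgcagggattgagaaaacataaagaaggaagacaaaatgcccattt
Batf3: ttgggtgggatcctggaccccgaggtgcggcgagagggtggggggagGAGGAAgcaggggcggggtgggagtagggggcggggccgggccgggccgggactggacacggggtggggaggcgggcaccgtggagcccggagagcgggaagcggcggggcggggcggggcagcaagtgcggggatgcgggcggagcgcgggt
C1qb: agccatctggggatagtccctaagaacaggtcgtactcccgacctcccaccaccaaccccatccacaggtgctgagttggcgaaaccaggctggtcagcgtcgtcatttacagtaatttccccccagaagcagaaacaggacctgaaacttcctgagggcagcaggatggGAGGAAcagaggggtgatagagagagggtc
Itgam: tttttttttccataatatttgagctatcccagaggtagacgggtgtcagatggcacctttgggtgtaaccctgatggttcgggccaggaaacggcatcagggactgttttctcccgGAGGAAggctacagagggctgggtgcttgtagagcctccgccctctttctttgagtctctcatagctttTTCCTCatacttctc
Counted from the start in the RefSeq table, the PU box lay at −146 to −141 in *Marco*, at −153 to −148 in *Batf3*, at −30 to −25 in *C1qb*, and at −84 to −79 and −15 to −10 in *Itgam*. The stretch of *Marco* is printed from −200 to −61, since its later bases lie within the gene in the annotation of the counts. Of these 4 genes, *Marco* and *Batf3* were among the 8 with an unadjusted p under 0.05, and *C1qb* and *Itgam* were not.

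**Figure D3:**
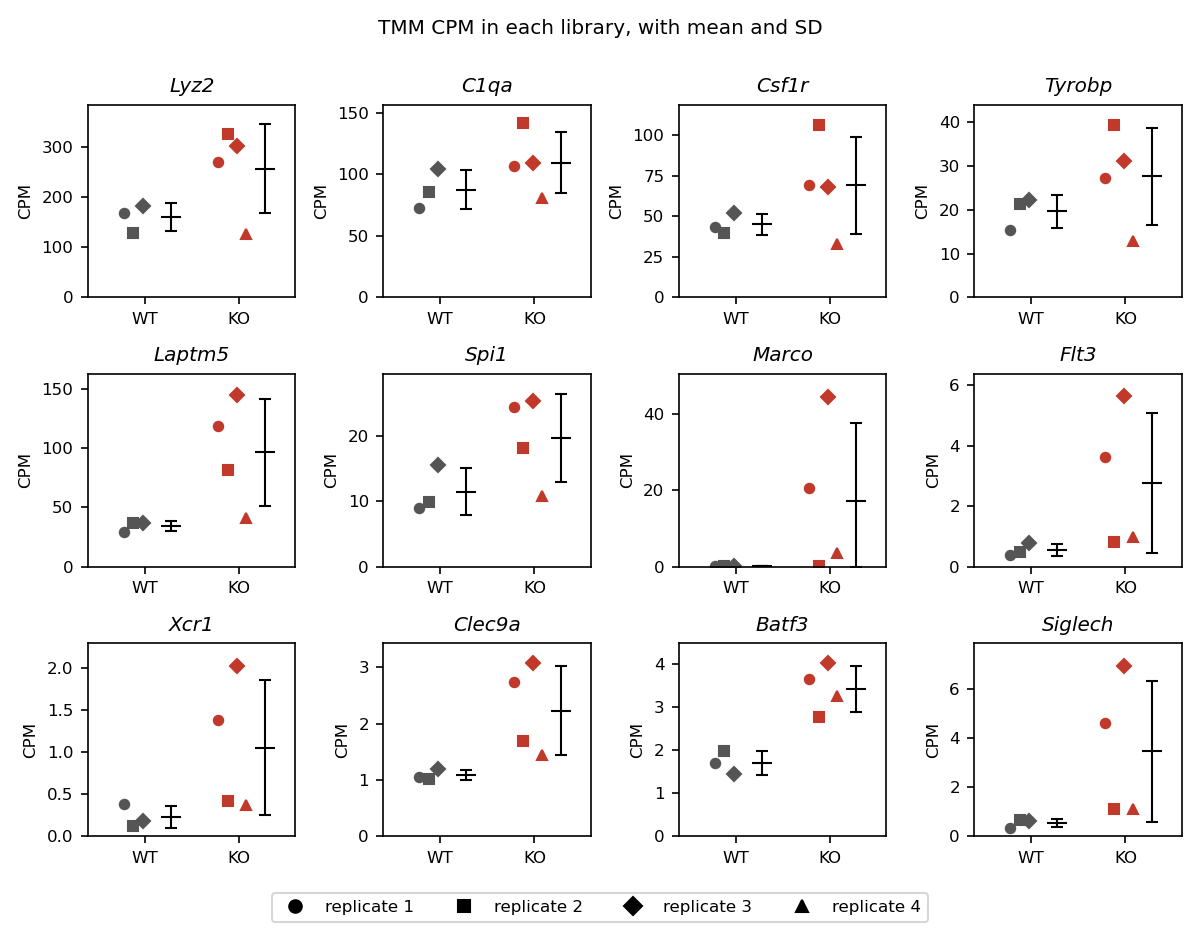
TMM CPM of 12 genes in each WT and *Tardbp* KO library, with the mean and SD of each genotype beside the points, each axis starting at 0 and bars not drawn below 0. KO replicate 4 (triangle) lies within or below the WT range for *Lyz2*, *C1qa*, *Csf1r* and *Tyrobp*, KO replicate 2 (square) is highest for those genes, and KO replicate 3 (diamond) is highest for *Laptm5*, *Spi1*, *Marco* and the dendritic genes.

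Among the dendritic genes, *Flt3* and the type 1 conventional dendritic cell genes *Xcr1*, *Clec9a* and *Batf3* were higher in KO in most libraries. *Flt3*, the receptor of the cytokine that drives dendritic cell development, was at 0.376, 0.477 and 0.773 CPM in WT and at 3.61, 0.805, 5.63 and 0.987 CPM in KO replicates 1 to 4. *Xcr1*, a chemokine receptor of type 1 cells, was at 0.376, 0.119 and 0.178 CPM in WT and at 1.38, 0.414, 2.03 and 0.373 CPM in KO. *Clec9a*, a receptor for dead cells on the same subset, was at 1.05, 1.01 and 1.19 CPM in WT and at 2.73, 1.68, 3.07 and 1.44 CPM in KO. For *Flt3* and *Clec9a* all KO libraries lay above WT, and for *Xcr1* KO replicate 4 lay just under WT replicate 1. KO replicates 3 and 1 were the highest libraries for each of these genes.

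The log2 fold changes were 2.33 ± 0.74 for *Flt3*, 2.24 ± 0.76 for *Xcr1* and 1.04 ± 0.36 for *Clec9a* (SE), with adjusted p-values of 0.132, 0.146 and 0.152. Without KO replicates 1 and 3 they were 0.71, 0.83 and 0.52, and with the lymphocyte markers as a covariate −0.15, 0.14 and 0.29. Of the exon bases of *Clec9a*, 5.52% overlap *Clec1b* on the same strand. *Batf3* was at 1.69, 1.97 and 1.43 CPM in WT and at 3.64, 2.76, 4.01 and 3.25 CPM in KO replicates 1 to 4. Every KO library was well above every WT library, and the gene had the smallest exact permutation p that the design allows, 0.0286. Its log2 fold change was 1.01 ± 0.27 (SE), with an adjusted p of 0.0953, and it was 0.83 without KO replicates 1 and 3, 0.86 within lane 4 and 0.63 with the lymphocyte covariate.

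*Siglech*, a lectin of plasmacytoid dendritic cells, which release type I interferon, was at 0.338, 0.655 and 0.595 CPM in WT and at 4.62, 1.10, 6.96 and 1.12 CPM in KO replicates 1 to 4. All KO libraries lay above WT, and KO replicates 1 and 3 were several times higher than the others. The log2 fold change was 2.69 ± 0.74 (SE), with an adjusted p of 0.102. It was 1.06 without KO replicates 1 and 3 and 0.30 with the lymphocyte covariate. *Itgax* was at 15.1, 19.6 and 13.7 CPM in WT and at 16.0, 25.0, 21.1 and 16.6 CPM in KO, with overlapping groups and a log2 fold change of 0.29 ± 0.21 (SE). *Cd209a*, a lectin of monocyte-derived and type 2 dendritic cells whose reads may be split with its *Cd209* relatives, was at 1.47, 0.894 and 1.64 CPM in WT. In KO it was at 3.03, 2.92, 3.30 and 0.96 CPM, so KO replicate 4 fell among the WT libraries. *Zbtb46*, a transcription factor of conventional dendritic cells that endothelium also expresses, was at 10.4 ± 3.03 CPM in WT and 11.1 ± 3.23 CPM in KO.

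The neutrophil genes were few and low. *Csf3r* was at 2.41, 2.62 and 2.32 CPM in WT and at 4.62, 6.31, 6.16 and 1.33 CPM in KO replicates 1 to 4. As with *Lyz2*, 3 KO libraries lay above WT and KO replicate 4 below it, and the log2 fold change was 0.91 ± 0.47 (SE), with an adjusted p of 0.31. *Retnlg*, a secreted resistin-like protein of neutrophils, was at 0, 0.119 and 0.357 CPM in WT and at 0.796, 0.713, 0.205 and 0 CPM in KO. *Elane*, the gene of neutrophil elastase, was at 0.226, 0.566 and 0.684 CPM in WT and at 0.239, 0.483, 0.716 and 0.16 CPM in KO. The groups overlapped for both genes, and no neutrophil gene had an unadjusted p under 0.05. *Cxcr2*, the receptor for neutrophil-attracting chemokines, which was not tested, had 2, 2 and 0 counts in WT and 36, 6, 44 and 0 counts in KO. Its counts were highest in KO replicates 1 and 3, the libraries with the most lymphocyte RNA, and the part of other cells in this was not tested. *Mpo*, the gene of myeloperoxidase, had 5, 4 and 2 counts in WT and 10, 2, 15 and 0 counts in KO, and 15.0% of its exon bases overlap *Gm11505* on the opposite strand.

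The cell types differed in which library stood highest. Of the 21 macrophage and monocyte genes, 18 were highest in KO replicate 2 and 3 in KO replicate 3, where 14.4% and 15% of all genes tested were. The 3 were *Marco*, *Laptm5* and *Spi1*, the macrophage genes with an unadjusted p under 0.05. Of the 8 dendritic genes, 6 were highest in KO replicate 3, 1 (*Zbtb46*) in KO replicate 1 and 1 (*Itgax*) in KO replicate 2. No member was highest in a WT library or in KO replicate 4. Of the 32 genes tested, 12 were lowest in KO replicate 4 and 11 in WT replicate 1, where 15.1% and 22.1% of all genes were, with *Retnlg*, at 0 in both, counted in the latter. These counts are descriptions, since the genes of 1 library share their source.

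**Figure D4:**
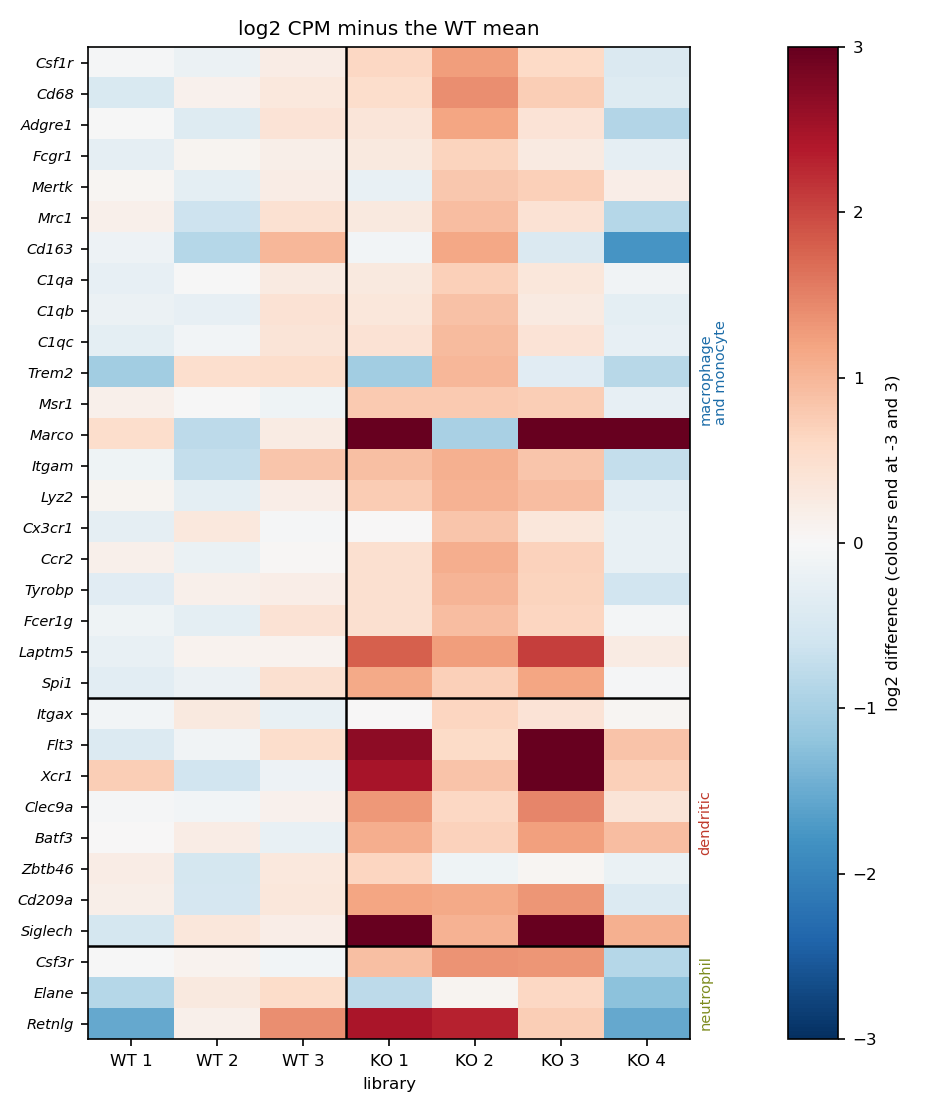
Log2 CPM of the 32 genes tested minus the WT mean of each gene, by library, with colours that saturate at 3 log2 units in either direction. Macrophage genes are reddest in KO replicate 2 and blue in KO replicate 4 for most genes, and *Flt3*, *Xcr1*, *Clec9a* and *Siglech* are reddest in KO replicates 1 and 3.

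The same contrast was seen in the medians over each list of log2 CPM minus the WT mean. For macrophage and monocyte genes, the KO libraries 1 to 4 had medians of 0.48, 0.96, 0.66 and −0.27, with −0.17 to 0.27 in WT. The dendritic genes gave medians of 1.245, 0.67, 1.39 and 0.56 in the KO libraries, with −0.10 to 0.16 in WT. Only the dendritic genes thus had a median above WT in all 4 KO libraries, of the 3 lists of members, and the difference between the lists was not tested. The 3 neutrophil genes tested had medians of 0.90, 1.35, 0.73 and −1.24 in the KO libraries. Within the macrophage and monocyte genes, the median log2 fold change was 0.40 for 13 tissue macrophage genes, 0.55 for 4 monocyte genes and 0.65 for 4 signalling genes.

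Markers of other cells moved with these libraries. The 12 lymphocyte markers had medians of 3.18, 0.47, 3.43 and 1.14 in KO replicates 1 to 4, with no marker at 0. All 12 were higher in KO at an unadjusted p under 0.05, where 10.7% of all genes were. This held for 8 of the 12 without KO replicates 1 and 3, where 5.46% of all genes were higher. The most abundant of them were *Ighm*, the heavy chain of IgM, at 17.7 ± 4.07 CPM in WT and 86.5 ± 67.7 CPM in KO, and *Ptprc* (CD45), which myeloid cells also express, at 19.8 ± 3.14 and 75.6 ± 53.8 CPM. With the lymphocyte markers as a covariate, 0 members had an unadjusted p under 0.05, where 3.21% of all genes were higher, and the median log2 fold change was 0.29 for the dendritic and 0.65 for the macrophage and monocyte genes. The median of these markers was at most 0.247 in WT, below every KO library. This fit therefore cannot fully tell genotype and lymphocyte RNA apart. In the lymph node stroma list, *Ccl21a*, which defines these cells, was at 0 in WT and at 0.0796, 0, 0.348 and 0.0533 CPM in KO replicates 1 to 4. Reads of *Ccl21a* may be split with its *Ccl21* relatives, so its low values are uncertain. Of 5 genes tested, 2 were higher (*Cxcl13* and *Cr2*) and 1 was lower (*Glycam1*) at an unadjusted p under 0.05, where 10.7% and 10.7% of all genes were. In KO replicates 1 to 4, *Cxcl13* was at 11.8, 0.138, 15.6 and 1.33 CPM and *Cr2* at 17.2, 0.161, 22.6 and 2.72 CPM. Their WT means were 0.115 and 0.174 CPM. The list's sum, 26300 to 57120 CPM in WT and 7076 to 23300 CPM in KO, was nearly all *Glycam1*, which milk-producing epithelium also expresses, and its other most abundant gene, *Madcam1*, was at 10.8 ± 2.56 and 11.6 ± 8.83 CPM. The part of lymph node tissue in the dendritic values was not tested.

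KO replicate 4, low for macrophage genes, was also low for stroma. Fibroblast markers had medians of 0.15, 0.75, −0.16 and −1.41 in KO replicates 1 to 4, and the summed level of the 6 fibroblast markers ranged from 972 to 2739 CPM in WT and from 675 to 2938 CPM in KO. *Col3a1* and *Col1a2*, collagen genes, were its most abundant, and 0 of 6 had an unadjusted p under 0.05. Mast cell and eosinophil markers, led by *Tpsb2* and *Mcpt4*, had medians of 0.73, 1.44, 0.65 and −0.88 in KO, with sums of 16.3 to 35.97 CPM in WT and 11.1 to 51.8 CPM in KO. Of the 9 tested, 1 was higher, *Hdc*, where 10.7% of all genes were. Luminal markers, led by *Elf5* and *Krt8*, had medians of 0.18, 0.26, 0.44 and 0.66 in KO, with sums of 2822 to 3697 CPM in WT and 3126 to 4492 CPM in KO. Of the 8 tested, 3 were higher and 1 was lower at an unadjusted p under 0.05, where 10.7% and 10.7% of all genes were. The lower gene was *Elf5*, at 1057 ± 46.6 CPM in WT and 703.5 ± 189 CPM in KO, and *Krt8* was among the higher genes. The median log2 fold change was 0.31 for adipocyte markers (led by *Fabp4* and *Cfd*), −0.24 for myoepithelial (*Acta2* and *Myh11*), −0.11 for endothelial (*Cdh5* and *Pecam1*) and 0.55 for skeletal muscle markers (*Mylpf* and *Acta1*), with no gene at an unadjusted p under 0.05 in these 4 lists over all 7 libraries. The part of tissue composition in the macrophage values was not tested.

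**Figure D5:**
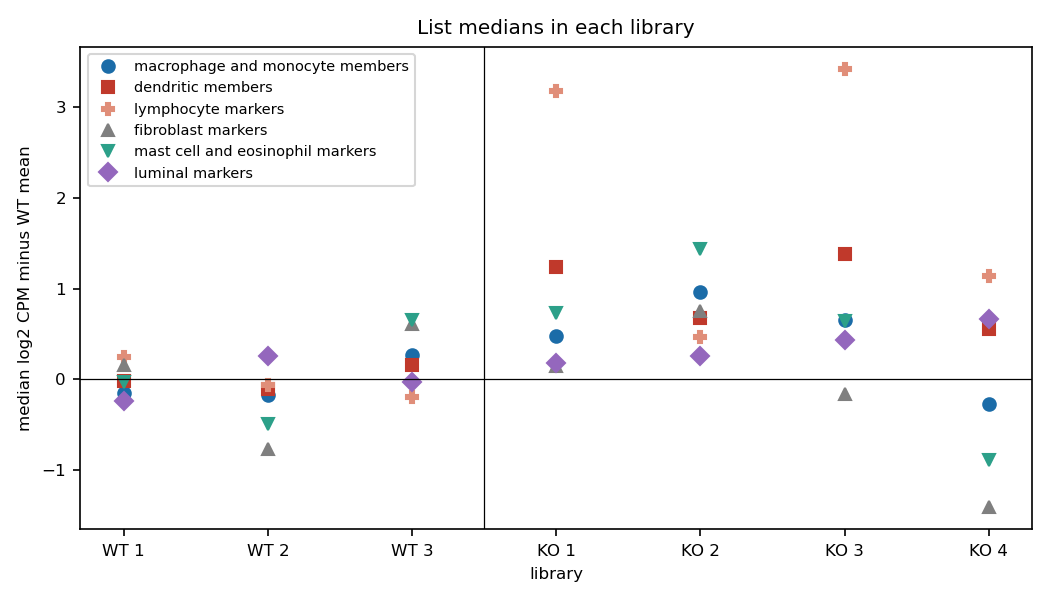
Median over each list of log2 CPM minus the WT mean, by library, for 2 lists of members and 4 lists of markers. The macrophage median is highest in KO replicate 2 and below 0 in KO replicate 4, as are the fibroblast and mast cell medians, while the dendritic median is highest in KO replicates 1 and 3, as is the lymphocyte median.

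Further genes of the same cell types were counted in the same fit. Over all genes tested, 10.7% were higher and 10.7% lower at an unadjusted p under 0.05. Without KO replicates 1 and 3, these shares were 5.46% and 7.02%. Of 20 other macrophage and monocyte genes, all tested, 8 were higher and 0 lower at an unadjusted p under 0.05, with a median log2 fold change of 0.63. The most abundant was *Cd14*, the endotoxin co-receptor, which mammary epithelium also makes, at 605 ± 613 CPM in WT and 1698 ± 733 CPM in KO. *Mpeg1*, a pore-forming protein of macrophages, was at 58.9 ± 12 and 98.3 ± 39.5 CPM, and *Ctss*, the protease cathepsin S, at 57.2 ± 5.06 and 91.2 ± 29.0 CPM, with log2 fold changes of 0.74 ± 0.31 and 0.67 ± 0.25 (SE). Without KO replicates 1 and 3 the count was 3 and the median 0.56.

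Of 16 other dendritic genes, 14 were tested, 8 were higher (10.7% of all genes) and 0 lower (10.7% of all genes), with a median of 1.49. When KO replicates 1 and 3 were left out, 4 were higher (5.46% of all genes) and the median was 0.52, and with the lymphocyte covariate it was 0.21. *Relb*, an NF-κB subunit of mature dendritic cells, was at 16.7 ± 3.66 CPM in WT and 49.2 ± 30.7 CPM in KO. *Fscn1*, an actin-bundling protein, was at 43.7 ± 11.4 and 72.1 ± 38.9 CPM. *Tlr3*, a sensor of double-stranded RNA, went the other way, at 37.9 ± 3.72 and 31.9 ± 4.09 CPM, and did not pass the test. The list includes *Cd8a*, which T cells also express.

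Of 16 other neutrophil genes, 9 were tested, 0 were higher (10.7% of all genes) and 2 lower (10.7% of all genes), with a median of 0.08. *Cxcr1* was at 0 in all 7 libraries. The median turned to −0.66 without KO replicates 1 and 3, with 1 higher (5.46% of all genes) and 3 lower (7.02% of all genes). With the lymphocyte covariate the median was −0.82. With all 7 libraries, the lower genes were *S100a8*, a calcium-binding protein, and *Padi4*, which citrullinates histones. *S100a8* was at 14.7 ± 6.72 CPM in WT and 7.197 ± 1.98 CPM in KO, and *Padi4* at 14.8 ± 12.5 and 4.14 ± 2.93 CPM. *Prtn3*, the gene of proteinase 3, was at 8.35 ± 4.48 and 15.7 ± 5.56 CPM. Of the 9 genes tested, 5 had a positive and 4 a negative log2 fold change. *S100a9*, named after its values were seen, had a higher mean in KO, 1.88 CPM against 0.433 CPM in WT, and did not pass the test. It was at 1.33, 0.69, 5.405 and 0.107 CPM in KO replicates 1 to 4. *Ngp* and *Camp*, also named afterwards and not tested, were highest in KO replicates 3 and 1. For the ligands of the member receptors, 11 of 12 genes were tested, 2 were higher (10.7% of all genes) and 0 lower, with a median of 0.47. Without KO replicates 1 and 3, 0 were higher (5.46% of all genes) and the median was 0.43. *Cx3cl1*, the ligand of *Cx3cr1*, was at 39.3 ± 8.57 CPM in WT and 54.5 ± 6.08 CPM in KO, with a log2 fold change of 0.47 ± 0.18 (SE) and an adjusted p of 0.178. *Flt3l*, the ligand of *Flt3*, named after its values were seen, was at 2.03 ± 0.475 and 4.38 ± 1.72 CPM. *Csf1* and *Il34*, the ligands of *Csf1r*, were at 46.0 ± 13 and 7.98 ± 2.13 CPM in WT and at 35.1 ± 3.62 and 7.48 ± 3.06 CPM in KO, and neither passed the test.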

How the data were processed

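Total RNA of mammary gland was extracted with TRIzol, and libraries were prepared with an Illumina TruSeq kit and sequenced paired-end. The authors mapped reads to NCBIM37 with STAR (version 2.5.2a in the submitters' processing notes) and deposited whole-number counts per gene, made with featureCounts 1.4.6-p5 on GENCODE exons. No option for strand, read pairs or multimapping reads stands in the command of the file header, which names 1 library without a column, not analysed here. Whether libraries came from separate mice is not stated in the labels, so p-values measure the spread between these samples, and no 2 libraries of a genotype agreed within sampling noise (chi-square per degree of freedom of 97.8 to 225).

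The labels gave the genotype of each library. After removal of 37 mitochondrial and 580 ribosomal genes, 17175 genes reached the minimum of 5 counts in 4 or more of 7 libraries. The genotypes were then compared in R 4.3.3 with edgeR 4.0.16 (TMM, quasi-likelihood test, Benjamini-Hochberg adjustment over all genes tested). For single genes, log2(CPM + 1) was also compared by an exact permutation test (2-sided, 35 assignments). The SD over libraries includes counting error. Log2 CPM used a prior count of 2. The test was first checked on simulated data. Older symbols (*Emr1*, *Sfpi1*) were matched through RefSeq synonyms.

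The members and gene lists were chosen with earlier results of these data known. Values in every library were given for members with an unadjusted p under 0.05 or groups that did not overlap, and for the 3 members with the highest CPM per kb in each cell type. Of the lists of further myeloid genes and ligands, the 3 genes with the highest mean CPM were named, and of the marker lists 2, whatever their change. Alternatives were other normalisations, filters and tests (edgeR's exact test, DESeq2 1.42.0), a replicate block, leaving out libraries, lane 4 alone and a lymphocyte covariate.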

Additional observations from a re-analysis of the deposited data

Results flagged for a closer look

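Outlying libraries were sought in 35 groups of 4 KO values, for the 32 genes tested and the medians of the 3 cell types. The gap between the lowest or the highest library and its nearest neighbour was compared with the whole range (Dixon's ratio). Chance flags about 1 of 20 groups in this way. The limit was exceeded for *Msr1* (ratio 0.937) and *Cd209a* (ratio 0.84), in each case because KO replicate 4 lay below the other KO libraries. No highest library was flagged. *Msr1* was at 2.67 CPM there, against 5.34 to 5.52 CPM in the other KO libraries. *Cd209a* was at 0.96 CPM there, against 2.92 to 3.30 CPM.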

How the results depend on the processing

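Of the members, 0 were called by the quasi-likelihood test, 2 by edgeR's exact test and 3 by DESeq2. The count of members higher at an unadjusted p under 0.05, 8, was 22 with library size only (30.8% of all genes), which moved the median log2 fold change of all genes from 0.05 to 0.42. It was 3 without KO replicates 1 and 3, 0 with the lymphocyte covariate, and between 5 (without WT replicate 2) and 18 (without KO replicate 4) when single libraries were left out. Libraries of the same replicate number had correlations of deviations of 0.35, 0.09 and −0.06. Libraries of different numbers were not compared in this way, so these values cannot show whether the numbers pair the libraries. With the replicate block the count was 20 (12.8% of all genes) and *Cd163* was at 0.19. Replicate 4 exists only in KO, so in the block fit KO replicate 4 adds nothing to the contrast of the genotypes. The dendritic median was 1.41 with library size only, 0.63 without KO replicates 1 and 3 and 0.29 with the lymphocyte covariate. The neutrophil median was −0.58 in lane 4, which gives values without a test. The cause of these shifts was not tested.

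Log2 fold changes turned sign as follows. In lane 4, *Fcgr1* was at −0.10, *Cx3cr1* at −0.26, *Tyrobp* at −0.10, *Itgax* at −0.067 and *Retnlg* at −0.58. With library size only, *Cd163* was at 0.25, *Trem2* at 0.13 and *Elane* at 0.091. Without KO replicates 1 and 3, *Cd163* was at 0.13, *Trem2* at 0.19 and *Zbtb46* at −0.21. With the lymphocyte covariate, *Cd163* was at 0.71, *Trem2* at 0.81, *Marco* at −0.53, *Flt3* at −0.15 and *Zbtb46* at −0.34. With single libraries left out, *Cd163* ranged from −0.81 to 0.53, *Trem2* from −0.90 to 0.003, *Zbtb46* from −0.13 to 0.25 and *Elane* from −0.737 to 0.012. The 21 other members tested kept their direction under every alternative run. Low counts limited the neutrophil genes.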
